A study of Mus musculus with 2 samples.

Results

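The proteasome genes of sorted intestinal lymphocytes from aged mice are described here: every gene whose symbol begins with Psma, Psmb, Psmc, Psmd, Psme, Psmf or Psmg followed by a number and that had at least 20 unique molecular identifiers (UMIs, 1 per captured transcript) over both replicates. The name rule matched 50 genes and the UMI rule kept 48 of them, out of 23679 genes in either count table. Just inside the threshold were Psmc3ip with 41 UMIs and Psmg3 with 50. Just outside were Psma8, which encodes a testis-restricted alpha subunit, with 3 UMIs, and Psmb11, the catalytic subunit of thymic cortical epithelium, with 0 UMIs, which allows up to 0.218 CPM (UMIs per 1000000 UMIs of the sum; 3 UMIs over both replicates, counting error only). Of the 48, Psmc3ip shares only its name with the family and encodes a meiotic recombination factor. Psme2b is an intronless copy of Psme2, identical to it in 789 of 794 aligned bases of the annotated transcripts, so reads could be split between both genes.

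The proteasome is a barrel-shaped protease that degrades proteins tagged with ubiquitin. Its 20S core stacks rings of alpha subunits (Psma genes) around rings of beta subunits (Psmb genes), and the 19S cap of ATPases (Psmc genes) and non-ATPase subunits (Psmd genes) recognises, unfolds and feeds in the substrate. In cells that respond to interferon-gamma, and constitutively in many lymphocytes, the catalytic subunits Psmb6, Psmb7 and Psmb5 are replaced by Psmb9, Psmb10 and Psmb8 to form the immunoproteasome, which favours peptides that fit MHC class I molecules.

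Single-cell RNA sequencing was done on cells sorted as group 3 innate lymphoid cells (ILC3s) from the small-intestinal lamina propria of male C57BL/6 mice aged 18 months, with no genotype or treatment stated. Both samples form 1 group, replicate 1 with sample tag 6 and replicate 2 with sample tag 12, each tag in a library of its own, and the labels do not say whether they were separate animals or pools. No young or mutant cells were analysed here, so the comparisons are between kinds of cell inside the sort and between the 2 replicates. After the filters, 3337 and 3840 cells with 6939790 and 6810214 UMIs were kept in replicates 1 and 2, and the libraries shared 10 cell barcodes among the cells of their own tags.

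Cells were grouped by transcripts that are not proteasome genes. T cells had a UMI of Cd3d, Cd3e or Cd3g (1149 and 1117 cells in replicates 1 and 2). Among cells without one, Ncr1 cells had a UMI of Ncr1, the natural cytotoxicity receptor NKp46 (608 and 438 cells), and Ccr6 or Cd4 cells had a UMI of either gene, both marks of lymphoid tissue inducer-type ILC3s, and none of Ncr1 (128 and 79 cells). All other cells formed the rest (1452 and 2206 cells). Median depth per cell in replicates 1 and 2 was 1991 and 1769 UMIs in T cells, 2045 and 1860 in Ncr1 cells, 1629 and 1670 in Ccr6 or Cd4 cells, and 1725 and 1579 in the rest. A cell without a CD3 UMI is not shown to be without CD3: 69.7% of such cells in each replicate (1525 of 2188 and 1898 of 2723) carried a UMI of a T cell receptor constant gene. The summed level of 10 T cell markers, 3 of which define the group, was 4461 and 3788 CPM in T cells, against 534 to 1119 CPM in the other groups. The summed level of 10 ILC3 markers lay between 6612 and 12641 CPM in all 8 sums of a group and a replicate. The libraries differed in markers of other cell types. The 6 collagen and fibroblast markers summed to 584 to 5122 CPM over the groups of replicate 1, against 26.0 to 127 CPM in replicate 2. The B or plasma cell markers summed to 1917 to 6004 CPM, against 39.0 to 4464 CPM, and the myeloid markers to 373 to 725 CPM, against 213 to 359 CPM. Whether these UMIs came from cells of those types was not tested. Their part in the results was not tested either, except by leaving out cells with such markers where stated. That step left out 1292 of the 3337 cells in replicate 1 and 384 of the 3840 in replicate 2.

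The 48 genes took nearly the same share of the transcriptome in every group. In T cells they held 0.323% of all UMIs in replicate 1 and 0.316% in replicate 2. The share was 0.335% and 0.325% in Ncr1 cells, 0.326% and 0.344% in Ccr6 or Cd4 cells, and 0.326% and 0.320% in the rest. These 8 values span 0.316% to 0.344%. T cells lie just below Ncr1 cells and Ccr6 or Cd4 cells, and the other pairs of groups overlap over both replicates. Within each replicate, T cells also lie below the rest, and the rest below Ncr1 cells. A share of a summed count cannot tell fewer expressing cells from less RNA per cell. After thinning to 1000 UMIs, which left out 186 and 313 shallower cells, a cell held on average 3.22 proteasome UMIs in replicate 1 and 3.15 in replicate 2, with a variance 1.19 and 1.16 times the mean. By group this ratio ran from 1.10 in the rest of replicate 2 to 1.40 in the Ccr6 or Cd4 cells of replicate 2, where counting alone gives 1.

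**Figure D1:**
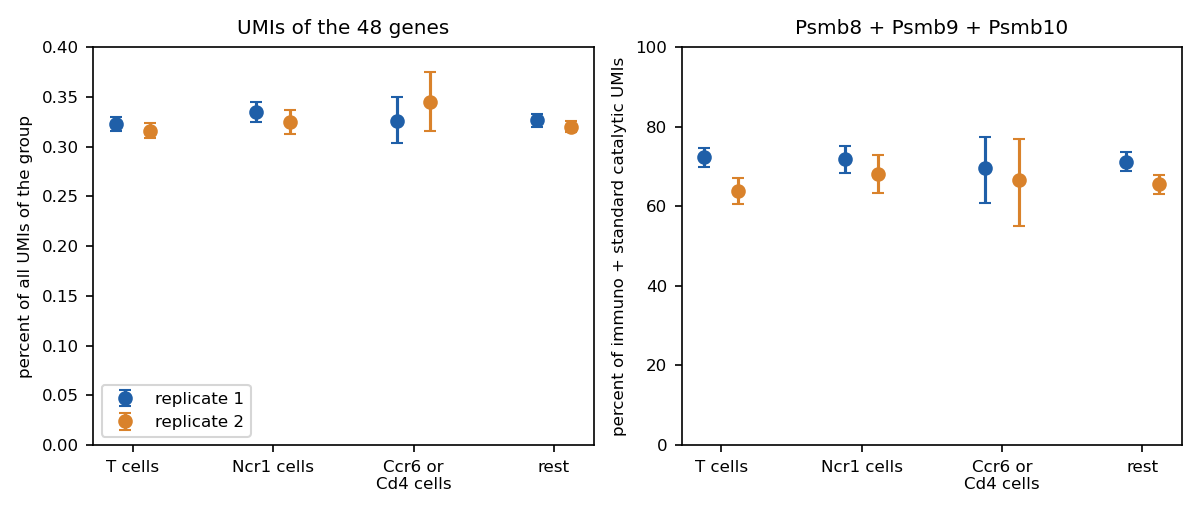
Left, UMIs of the 48 genes as a percent of all UMIs, by cell group. Right, Psmb8, Psmb9 and Psmb10 UMIs as a percent of the UMIs of these and of Psmb5, Psmb6 and Psmb7. Points are 1 replicate each (blue, replicate 1; orange, replicate 2) and bars are exact 95% binomial intervals, which cover counting error only. The left panel is flat, between 0.316% and 0.344%, while in the right panel replicate 1 lies above replicate 2 in all 4 groups.

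No proteasome gene passed the test between T cells and Ncr1 cells. Counts were summed per group and replicate and tested with edgeR's quasi-likelihood test with the replicate as a block, at an adjusted p of 0.05 over all 9637 genes tested. Of the 48 members 46 passed the filter on low counts, all but Psmc3ip and Psmg3. Of them 0 were higher and 0 lower, where 11.6% of all genes tested were called (17.7% of genes with at least 500 UMIs), so these same sums did show differences in other genes. DESeq2 also called 0 members, and 687 of the 9637 genes. At an unadjusted p under 0.05 there were 4 members with edgeR and 0 with DESeq2. The share of all genes at an unadjusted p is not given here for any comparison. The members' median log2 ratio was -0.002, against 0.02 over all genes, and the median size of their log2 ratios was 0.11, against 0.28 over all genes and 0.20 over genes with at least 500 UMIs. The 95% interval of the ratio lay within 1.5-fold of no difference for 28 of 46 members and within 2-fold for 43. For the other 18 members, a 1.5-fold difference lies inside the interval in at least 1 direction.

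T cells and Ccr6 or Cd4 cells gave the same count, with far fewer cells on one side. Of 46 members 0 were higher and 0 lower, where 10% of all genes were called (17.2% of those with at least 500 UMIs). Of the members, 3 had an unadjusted p under 0.05 with edgeR and 0 with DESeq2, which called 0 members and 794 of 9637 genes. The members' median log2 ratio was 0.07, against 0.10 over all genes. The intervals are wide here: 10 of 46 lay within 1.5-fold and 26 within 2-fold. Between T cells and the rest, 0 members were higher and 0 lower, where 13.8% of all genes were called (20.5% of those with at least 500 UMIs). There were 2 members at an unadjusted p under 0.05 with edgeR and 0 with DESeq2, which called 0 members and 718 of 9637 genes. The members' median was 0.03, against -0.01 over all genes, and 36 intervals lay within 1.5-fold. These 3 comparisons share the sums of the T cells and are not independent of each other. Between Ncr1 cells and Ccr6 or Cd4 cells, 0 members were higher and 0 lower, where 4.56% of all genes were called (8.13% of those with at least 500 UMIs). There were 4 members at an unadjusted p under 0.05 with edgeR and 1 with DESeq2, which called 0 members and 352 of 9637 genes. The members' median was 0.07, against 0.10 over all genes, and 7 intervals lay within 1.5-fold.

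**Figure D2:**
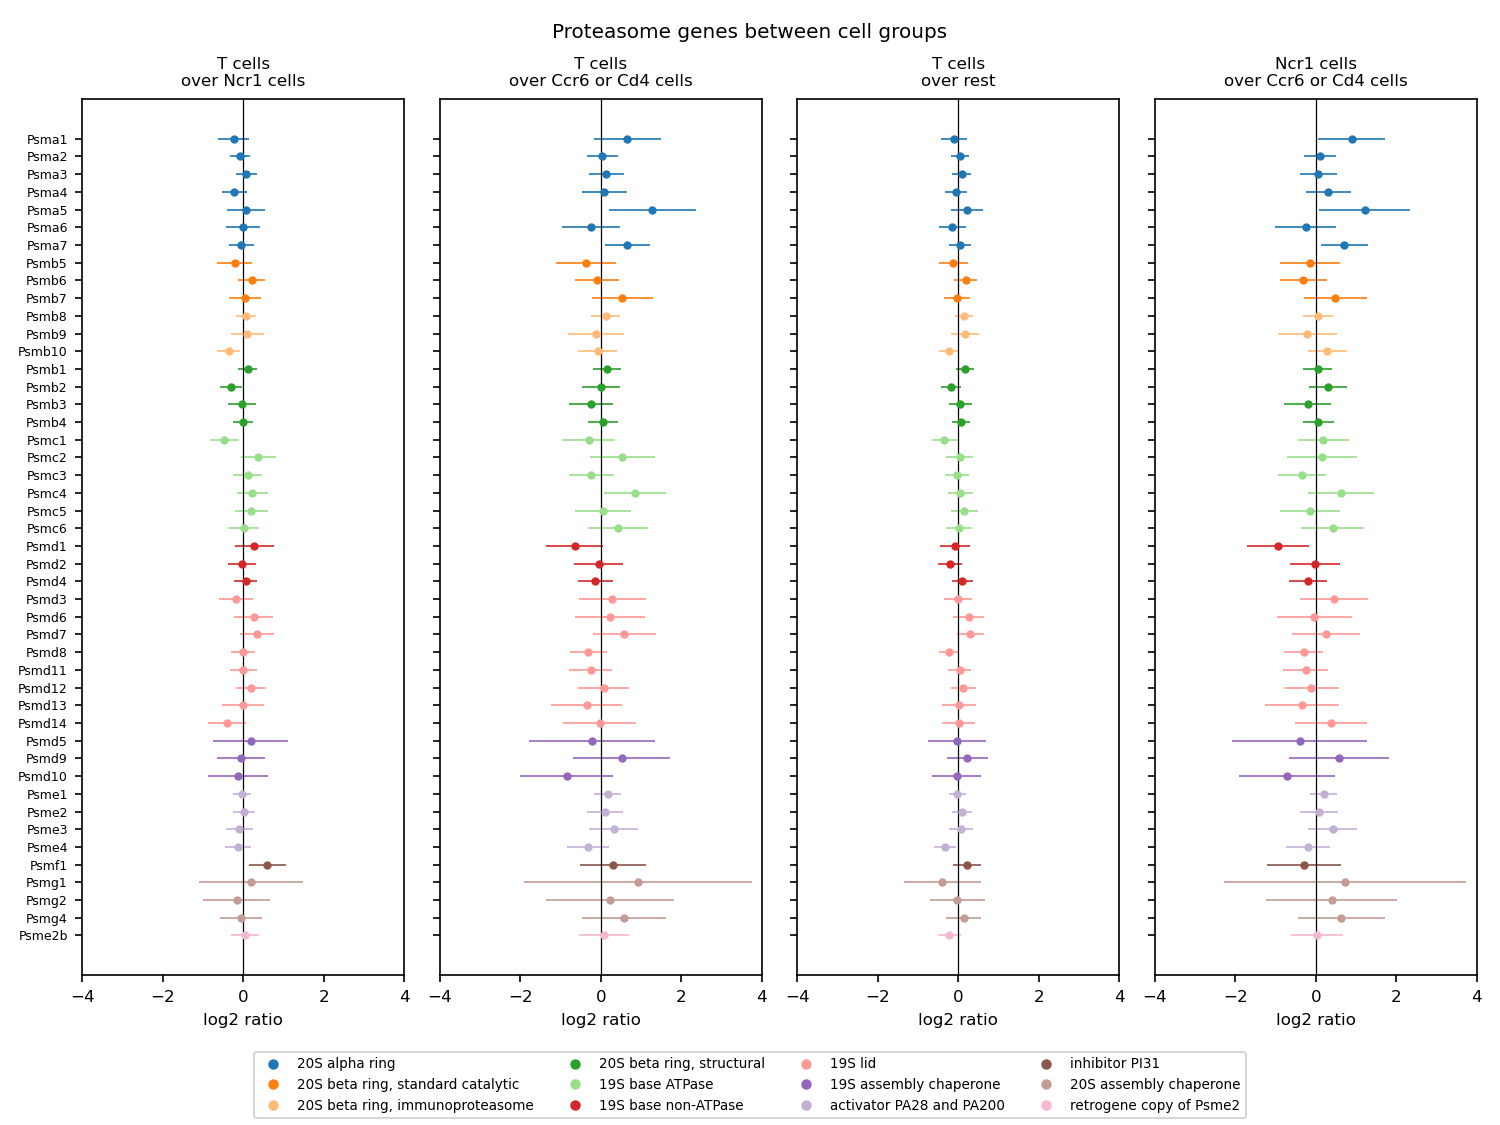
Log2 ratio (horizontal axis) of each of the 46 tested proteasome genes (vertical axis, coloured by role) in 4 comparisons between cell groups. Points are edgeR estimates over both replicates and bars are 95% intervals. The points lie near 0 in comparisons with many cells, between -0.47 and 0.60 for T cells over Ncr1 cells, and the bars are widest where the 128 and 79 Ccr6 or Cd4 cells enter.

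In the 20S core, the alpha ring that gates the barrel had 7 members, with 0 past the threshold in any of the 4 comparisons. Its genes summed to 538 and 534 CPM in T cells in replicates 1 and 2, 572 and 573 CPM in Ncr1 cells, 437 and 578 CPM in Ccr6 or Cd4 cells, and 543 and 529 CPM in the rest. The low value is that of replicate 1 of the Ccr6 or Cd4 cells, where Psma7 had 42.0 CPM on 10 UMIs, against 123 CPM in replicate 2. Psma5 had the highest ratio of the ring in T cells over Ccr6 or Cd4 cells. It stood at 30.1 and 26.0 CPM in T cells, against 12.6 and 13.0 CPM in Ccr6 or Cd4 cells, the last on 3 and 2 UMIs. The groups do not overlap, but the log2 ratio of 1.27 ± 0.55 (SE) did not pass the test (edgeR, adjusted p = 0.168; 95% interval 0.19 to 2.36).

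The structural beta subunits Psmb1, Psmb2, Psmb3 and Psmb4, which carry no active site, summed to 587 and 572 CPM in T cells, 609 and 610 CPM in Ncr1 cells, 635 and 585 CPM in Ccr6 or Cd4 cells, and 597 and 548 CPM in the rest. Psmb2 had the lowest ratio of the 4 in T cells over Ncr1 cells. It had 114 and 105 CPM in T cells, against 133 and 146 CPM in Ncr1 cells and 133 and 121 CPM in the rest. The T cells lie below both groups in each replicate. The log2 ratio was -0.30 ± 0.14 over Ncr1 cells and -0.18 ± 0.13 over the rest (SE; edgeR, adjusted p = 0.210 and 0.420). With cells thinned to 1000 UMIs, Psmb2 over the rest was -0.43 with groups from full counts and -0.45 with groups from thinned counts. It passed the threshold in both (edgeR, adjusted p = 0.042 and 0.029). Psmb2 was at -0.026 over the rest and 0.009 over Ncr1 cells without cells that had T cell receptor constant UMIs but no CD3 UMI. It passed in neither of these (edgeR, adjusted p = 0.957 and 0.994).

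The catalytic subunits carry the exchange between standard proteasome and immunoproteasome. Psmb8 and Psmb9 lie in the MHC class II region beside the peptide transporter genes: Psmb9 at chr17:34181987-34187764 on the minus strand, Tap1 at chr17:34187553-34197225, Psmb8 at chr17:34197721-34201454 and Tap2 at chr17:34203527-34216321 on the plus strand (GRCm38, GENCODE M21). Psmb9 and Tap1 start in opposite directions and their annotations share 212 bases. Psmb10 lies apart at chr8:105935735-105938444 on the minus strand, and the standard genes at chr14:54614119-54618022 (Psmb5, minus strand), chr11:70525367-70527858 (Psmb6, plus strand) and chr2:38588036-38644087 (Psmb7, minus strand). The exons of 15 members overlap those of another annotated gene, such as Nek6 for Psmb7 and Sirt3 for Psmd13, and the sources used here do not say whether counting used strand. Pseudogenes of Psmb5 and Psmb6 in the annotation are 94.9% and 93.9% identical to their parent over the aligned bases, so levels of these genes are less certain.

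The 250 bases before the RefSeq start of Psmb5 and Psmb6 are shown because these standard catalytic genes each hold a match to the antioxidant response element, through which NRF factors are known to act on proteasome genes (RefSeq, GRCm38.p6, 5′ to 3′ on the strand of the gene). Windows are chr14:54617996-54618245 (Psmb5, minus) and chr11:70525107-70525356 (Psmb6, plus). The other standard catalytic gene, Psmb7, had no window and was not searched. The RefSeq start lies 27 bases inside the GENCODE gene for Psmb5 and 10 bases before it for Psmb6. Capitals mark the matches to TGACNNNGC.
Psmb5: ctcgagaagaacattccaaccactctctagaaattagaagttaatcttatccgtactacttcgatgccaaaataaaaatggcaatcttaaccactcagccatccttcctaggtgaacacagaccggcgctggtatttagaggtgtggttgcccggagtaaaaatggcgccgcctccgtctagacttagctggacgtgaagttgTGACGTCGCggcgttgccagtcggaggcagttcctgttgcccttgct
Psmb6: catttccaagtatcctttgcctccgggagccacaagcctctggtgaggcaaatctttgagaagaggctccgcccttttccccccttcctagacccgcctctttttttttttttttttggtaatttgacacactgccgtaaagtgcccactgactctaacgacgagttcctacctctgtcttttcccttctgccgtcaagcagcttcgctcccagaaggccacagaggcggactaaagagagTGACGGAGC
The matches start 47 and 9 bases before the RefSeq start of Psmb5 and Psmb6. This pattern and a core of the interferon-stimulated response element (GAAANNGAA) were searched on both strands in 32841 windows of 300 bases (250 before and 50 after the RefSeq start), of which 12.4% held TGACNNNGC and 8.56% GAAANNGAA. Of the 41 members with a window, 6 held the first (Psmb5, Psmb6, Psmc6, Psmd12, Psmd9 and Psme4) and 7 the second (Psmb3, Psmb4, Psmc2, Psmd4, Psmd9, Psme1 and Psmg4). In 13 of the 41, Psmb8 and Psmb9 among them, a RefSeq start lies more than 50 bases inside the GENCODE gene. For Psmb8 and Psmb9 it lies 474 and 434 bases inside, so the bases before their GENCODE starts were not searched.

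Of the 3 immunoproteasome genes, 0 passed the test in any of the 4 comparisons between cell groups. Psmb8, which replaces Psmb5, stood at 227 and 159 CPM in T cells in replicates 1 and 2, 200 and 176 CPM in Ncr1 cells, 206 and 182 CPM in Ccr6 or Cd4 cells, and 198 and 156 CPM in the rest. All groups overlap. Psmb9, which replaces Psmb6, stood at 47.6 and 31.7 CPM in T cells, 44.1 and 32.2 CPM in Ncr1 cells, 63.1 and 26.0 CPM in Ccr6 or Cd4 cells (15 and 4 UMIs), and 43.1 and 29.1 CPM in the rest. The groups overlap here too over both replicates, while within each replicate the rest was below T cells and Ncr1 cells. Psmb10, which replaces Psmb7, stood at 110 and 77.1 CPM in T cells, 146 and 99.9 CPM in Ncr1 cells, 96.7 and 130 CPM in Ccr6 or Cd4 cells, and 130 and 94.2 CPM in the rest.

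Of the 3, Psmb10 had the lowest adjusted p in T cells over Ncr1 cells. Within each replicate it was lower in T cells than in Ncr1 cells, with a log2 ratio of -0.37 ± 0.15 (SE; -0.39 in replicate 1 and -0.32 in replicate 2) that did not pass the test (edgeR, adjusted p = 0.125). Psmb8 had 0.07 ± 0.12 and Psmb9 0.10 ± 0.21 in the same comparison, with 95% intervals of -0.17 to 0.31 and -0.32 to 0.51. Psmb8 over the rest was 0.14 ± 0.11 (interval -0.08 to 0.36).

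Of the 3 standard catalytic genes, 0 passed in any of the 4 comparisons. Psmb5 stood at 37.7 and 38.8 CPM in T cells, against 50.1 and 39.0 CPM in Ncr1 cells, 63.1 and 39.0 CPM in Ccr6 or Cd4 cells, and 37.2 and 47.1 CPM in the rest. Psmb6 stood at 59.5 and 69.1 CPM in T cells, against 52.3 and 62.0 CPM in Ncr1 cells, 67.3 and 84.4 CPM in Ccr6 or Cd4 cells, and 54.4 and 60.7 CPM in the rest. Psmb7 stood at 50.3 and 43.5 CPM in T cells, against 50.8 and 42.5 CPM in Ncr1 cells, 29.4 and 45.5 CPM in Ccr6 or Cd4 cells, and 58.7 and 39.8 CPM in the rest. In T cells over Ncr1 cells their log2 ratios were -0.22 ± 0.22 for Psmb5, 0.21 ± 0.17 for Psmb6 and 0.04 ± 0.20 for Psmb7 (SE). Psmb5 passed the threshold in that comparison only when both cells and groups were taken from thinned counts (log2 ratio -0.95, edgeR, adjusted p = 0.044). Its ratio under the other alternatives was lowest, at -0.51 ± 0.28, with thinned cells and groups from full counts. It was highest, at 0.25 ± 0.41, without cells that had T cell receptor constant UMIs but no CD3 UMI (SE).

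Taking the 3 immunoproteasome genes against the 3 standard ones within each sample, T cells and Ncr1 cells had no common direction under the processing used throughout. The immunoproteasome genes held 72.3% of the UMIs of these 6 genes in T cells in replicate 1 and 63.9% in replicate 2, 71.8% and 68.2% in Ncr1 cells, 69.6% and 66.7% in Ccr6 or Cd4 cells, and 71.2% and 65.5% in the rest. On the log2 scale the balance in T cells less that in Ncr1 cells was 0.03 in replicate 1 and -0.28 in replicate 2 (mean -0.12 ± 0.22, SD, n = 2). It was 0.19 and -0.18 against Ccr6 or Cd4 cells (mean 0.005 ± 0.26), and 0.08 and -0.10 against the rest (mean -0.01 ± 0.13). Ncr1 cells less Ccr6 or Cd4 cells gave 0.16 and 0.10 (mean 0.13 ± 0.04). The sign differed between replicates in the 3 comparisons with T cells. Against Ncr1 cells and against Ccr6 or Cd4 cells it agreed under some alternatives, given in the closing section. As 2 pairs cannot give a two-sided exact permutation p below 0.5, none was tested.

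In the 19S cap, 0 of 17 subunit genes passed in any of the 4 comparisons. Its 6 ATPases, which unfold the substrate, summed to 292 and 321 CPM in T cells, 298 and 311 CPM in Ncr1 cells, 303 and 305 CPM in Ccr6 or Cd4 cells, and 311 and 327 CPM in the rest. The lowest adjusted p of any member in T cells over Ncr1 cells was that of the ATPase gene Psmc1, at 45.4 and 55.8 CPM in T cells, against 63.5 and 81.5 CPM in Ncr1 cells. It was lower in T cells within both replicates, with a log2 ratio of -0.47 ± 0.19 (SE; edgeR, adjusted p = 0.116). The highest ATPase ratio was that of Psmc2, 0.37. The 8 lid genes, whose product includes the deubiquitinase Psmd14, summed to 373 and 415 CPM in T cells, 380 and 413 CPM in Ncr1 cells, 383 and 533 CPM in Ccr6 or Cd4 cells, and 381 and 415 CPM in the rest. Psmd14 had the lowest lid ratio in T cells over Ncr1 cells, -0.41, and Psmd7 the highest, 0.33. In the base, the scaffold gene Psmd1 had 26.2 and 33.3 CPM in Ncr1 cells, against 46.2 and 77.9 CPM in Ccr6 or Cd4 cells (11 and 12 UMIs), a log2 ratio of -0.93 ± 0.39 (SE; edgeR, adjusted p = 0.226).

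Among regulators, 0 passed in any of the 4 comparisons, the genes of the interferon-inducible PA28 activator included. Psme1, its alpha subunit, stood at 228 and 251 CPM in T cells, 251 and 247 CPM in Ncr1 cells, 223 and 240 CPM in Ccr6 or Cd4 cells, and 230 and 263 CPM in the rest. Psme2, its beta subunit, stood at 112 and 103 CPM in T cells, 107 and 111 CPM in Ncr1 cells, 114 and 104 CPM in Ccr6 or Cd4 cells, and 101 and 104 CPM in the rest. Their log2 ratios in T cells over Ncr1 cells were -0.03 ± 0.12 (interval -0.26 to 0.20) and 0.02 ± 0.14 (interval -0.25 to 0.30). Psme4, the nuclear activator PA200, had 63.3 and 76.6 CPM in T cells, against 95.6 and 84.2 CPM in the rest, a log2 ratio of -0.34 ± 0.14 (SE; edgeR, adjusted p = 0.121). Psmf1, the inhibitor PI31, had 35.5 and 34.5 CPM in T cells, against 23.2 and 24.1 CPM in Ncr1 cells. The groups do not overlap, but the log2 ratio of 0.60 ± 0.24 did not pass the test (SE; edgeR, adjusted p = 0.124). The assembly chaperones, which build the rings and the cap, rest on 50 to 320 UMIs a gene over both replicates, and 0 of the 6 tested passed in any of the 4 comparisons.

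Among genes that work with the proteasome, 7 of 50 in 4 lists (14%) were called between T cells and Ncr1 cells, near the 11.6% of all genes. The other comparisons called 4 of the 50 (8%, against 10% of all genes) in T cells over Ccr6 or Cd4 cells, 5 (10%, against 13.8%) in T cells over the rest and 4 (8%, against 4.56%) in Ncr1 cells over Ccr6 or Cd4 cells. Of 12 genes of MHC class I presentation, 2 were higher in T cells than in Ncr1 cells and 0 lower: Nlrc5, the transactivator of MHC class I genes, and Tap1, the peptide transporter subunit that shares its start region with Psmb9. Nlrc5 had 102 and 78.0 CPM in T cells, against 53.1 and 34.5 CPM in Ncr1 cells, a log2 ratio of 1.07 ± 0.18 (SE; edgeR, adjusted p = 0.000188). Tap1 had 81.2 and 98.9 CPM in T cells, against 61.3 and 64.3 CPM in Ncr1 cells (0.55 ± 0.17, adjusted p = 0.033). Nlrc5 was also higher in T cells than in Ccr6 or Cd4 cells (1.61 ± 0.35) and than in the rest (0.82 ± 0.15), the 1 gene of the list called in each. In Ncr1 cells over Ccr6 or Cd4 cells 0 of the 12 were called (edgeR).

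Of 18 genes of interferon signalling and response, 2 were higher and 2 lower in T cells than in Ncr1 cells. Of all genes tested, 11.6%, 10%, 13.8% and 4.56% were called in the 4 comparisons, in the order given here. Higher in T cells than in Ncr1 cells were Ifngr2, a chain of the interferon-gamma receptor (log2 ratio 1.83 ± 0.48), and the interferon-induced GTPase Igtp (0.52 ± 0.17). Lower were the transcription factors Irf8 (-1.83 ± 0.24) and Irf7 (-0.78 ± 0.18). T cells over Ccr6 or Cd4 cells gave 1 higher, Ifngr1 at 0.77 ± 0.11, and 0 lower. T cells over the rest gave 1 higher, Jak2 at 0.37 ± 0.12, and 1 lower, Irf8 at -1.84 ± 0.21. Ncr1 cells over Ccr6 or Cd4 cells gave 2 higher and 2 lower, with Ifngr1 at 0.81 ± 0.11, Ifngr2 at -2.91 ± 0.65 and Socs1, a brake on interferon signalling, at -1.17 ± 0.32, while Irf7 differed in sign between replicates. Of 16 proteasome partners that carry no Psm name, such as the maturation factor Pomp and the deubiquitinase Usp14, 0 differed between T cells and Ncr1 cells, and 1, Zfand5, was lower in T cells than in Ccr6 or Cd4 cells (-0.67 ± 0.16) and than in the rest (-0.42 ± 0.11). Of 4 genes of ubiquitin and its activating enzymes tested, 1, Rps27a, was higher in T cells in the 3 comparisons, by 0.43 ± 0.10 on the log2 scale against Ncr1 cells, and 0 were lower.

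The 3 immunoproteasome genes were higher in replicate 1 than in replicate 2. Psmb8, Psmb9 and Psmb10 together held 380 CPM in replicate 1 and 281 CPM in replicate 2, a ratio of 1.35, while Psmb5, Psmb6 and Psmb7 together held 150 and 149 CPM. With 1 sample on each side there is no test, and the intervals here cover counting error only. Psmb9 was 1.51-fold higher in replicate 1 (95% interval 1.26 to 1.81), Psmb10 1.38-fold (1.24 to 1.53) and Psmb8 1.31-fold (1.21 to 1.42). Of the standard counterparts, Psmb5 stood at 0.941-fold (0.797 to 1.11), Psmb6 at 0.880-fold (0.766 to 1.01) and Psmb7 at 1.28-fold (1.09 to 1.5). The immunoproteasome share of the 6 genes was 71.7% in replicate 1 (interval 70.2% to 73.1%) and 65.4% in replicate 2 (63.6% to 67.1%), a difference of 6.30 percentage points (4.02 to 8.58).

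The difference was seen in each large group. The summed level of the 3 immunoproteasome genes in T cells came to 385 CPM for replicate 1 against 268 CPM for replicate 2, a ratio of 1.44 (1.29 to 1.60). It was 1.27 (1.09 to 1.48) in Ncr1 cells and 1.33 (1.22 to 1.45) in the rest. In the few Ccr6 or Cd4 cells the ratio was 1.08 (0.76 to 1.56), so its size is not fixed there. The summed standard genes had ratios of 0.97, 1.07, 0.95 and 1.02 in T cells, Ncr1 cells, Ccr6 or Cd4 cells and the rest, and all 4 intervals include 1. The difference in share was 7.33 points without cells that had 2 or more UMIs of stromal, B or plasma cell, myeloid or epithelial markers, and 7.56 points without cells that had a UMI of the heat shock genes Hspa1a, Hspa1b or Hsph1. With cells thinned to 1000 UMIs it was 4.90 points (1.57 to 8.22). These values were computed after the difference had been seen. The heat shock genes themselves differed between the replicates by more than any member. Hspa1a had 39.1 CPM in replicate 1 and 403 CPM in replicate 2, Hspa1b 36.2 and 512 CPM, and Hsph1 25.2 and 198 CPM, ratios of 0.097, 0.071 and 0.127. Hsp90aa1, a stress-responsive chaperone, stood at 0.484-fold.

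Shifts of this size between the replicates were common among all genes. Of the 48 members 8 were at least 1.25-fold higher in replicate 1 and 2 at least 1.25-fold lower, where 55.4% of genes with at least 20 UMIs were past that fold in either direction and 40.9% higher in replicate 1. Among genes with at least 500 UMIs, 37.9% were past that fold and 20.2% higher in replicate 1. Of 32 members with that many UMIs, 5 (15.6%) were past the fold in either direction. The share of members past the fold, 10 of 48 or 20.8%, lay below that of all genes in these libraries, and this was not tested. The 8 higher ones were Psmd13, Psmb9, Psmg2, Psmd5, Psmb10, Psmb8, Psmg4 and Psmb7, and the 2 lower ones were Psmd11 and Psmg3. They are named because of their values.

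Psmd11 and Psmd13, both lid subunits, moved in opposite directions. Psmd11 had 63.3 CPM in replicate 1 and 87.0 CPM in replicate 2 of the T cells, 60.5 and 95.3 CPM in Ncr1 cells, 54.7 and 156 CPM in Ccr6 or Cd4 cells, and 58.4 and 92.3 CPM in the rest. It was lower in replicate 1 in all 4 groups, 0.654-fold over all cells (0.577 to 0.741). Psmd13 had 28.2 and 18.0 CPM in T cells, 28.4 and 19.5 CPM in Ncr1 cells, 29.4 and 39.0 CPM in Ccr6 or Cd4 cells (7 and 6 UMIs), and 30.7 and 16.6 CPM in the rest. Over all cells it was 1.63-fold higher in replicate 1 (1.30 to 2.06).

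**Figure D3:**
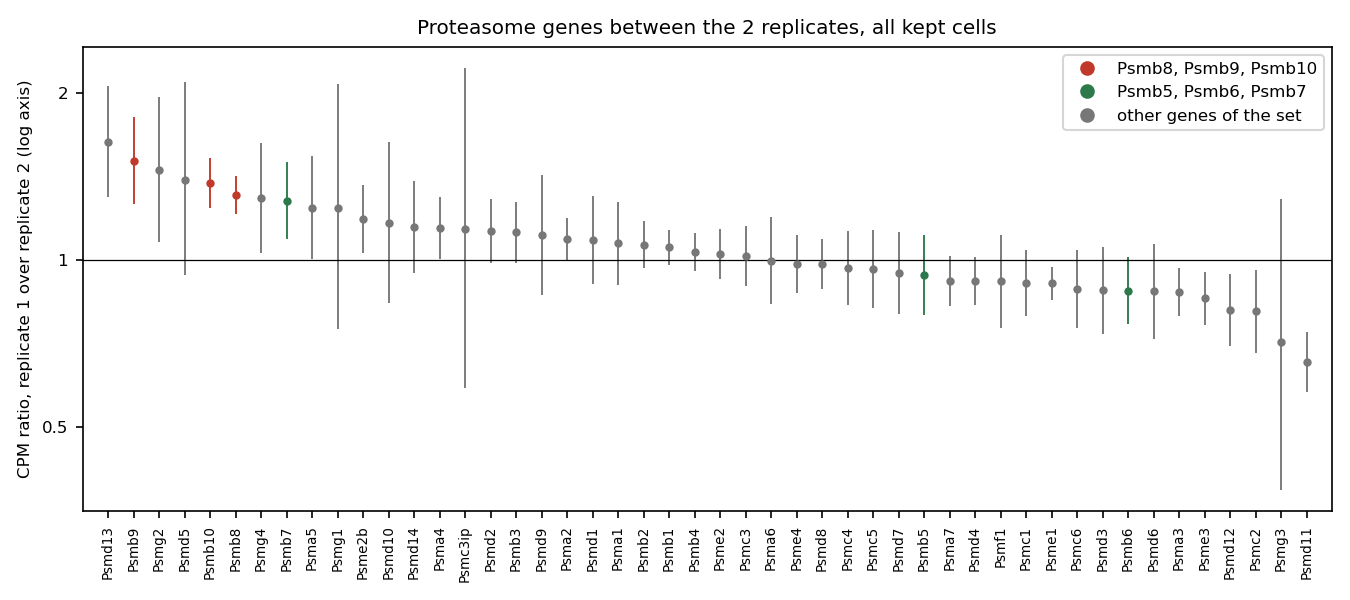
Ratio of CPM in replicate 1 over replicate 2 (vertical log axis) for each of the 48 genes, ordered by ratio, over all kept cells. Points are ratios and bars are exact 95% Poisson intervals for counting error only. The 3 immunoproteasome genes (red) lie between 1.31 and 1.51. Of the standard genes (green), Psmb7 lies at 1.28, and Psmb5 and Psmb6 lie below 1 with bars that include 1.

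Genes around the immunoproteasome did not move together between the replicates. Of the 12 MHC class I genes, 5 were at least 1.25-fold higher in replicate 1, among them Tapbp at 1.88-fold, Erap1 at 1.63-fold, Nlrc5 at 1.54-fold and Tap2 at 1.43-fold, and 2 were lower, with Calr, a chaperone that is also stress-responsive, at 0.63-fold. Tap1, which starts beside Psmb9, stood at 0.96-fold (0.85 to 1.08). Of the 18 interferon genes, 5 were higher and 7 lower. Among all genes with at least 20 UMIs, 40.9% were higher and 14.5% lower by that fold. Among those with at least 500 UMIs, 20.2% were higher and 17.7% lower. A cause of these differences was not tested. Gbp2 was at 1.85-fold and Irf7 at 1.54-fold, while Irf1, the factor known to drive Psmb8 and Psmb9, was at 0.67-fold and Igtp at 0.49-fold. The PA28 genes, which interferon-gamma also induces, were at 0.91-fold (Psme1, 0.85 to 0.97) and 1.03-fold (Psme2, 0.92 to 1.14). Pomp, which matures the immunoproteasome core, was at 1.31-fold (1.20 to 1.43).

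Proteasome genes took a larger share in deeper and in cycling cells. In cells ordered by UMIs and cut into 4 equal parts within each replicate, the 48 genes held 0.305% of UMIs in the lowest part and 0.342% in the highest in replicate 1, and 0.305% and 0.340% in replicate 2. Cells with a UMI of the cell cycle genes Mki67 or Top2a, 100 and 97 cells in replicates 1 and 2, gave 0.406% and 0.395%, against 0.323% and 0.317% in other cells. These cells were deeper, with medians of 2308.5 and 2513 UMIs, against 1869 and 1662 in other cells. Thinned to 1000 UMIs a cell, the share was 0.368% and 0.369% in cycling cells, against 0.320% and 0.314% in other cells. The cycling cells lie above the others in both replicates with and without thinning, and the gap is smaller after thinning. Cycling cells were still picked from full counts, and thinning leaves the expected share of a cell unchanged. The thinned values are therefore not matched for the depth of the cells before thinning.

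Gene by gene, 1 of the 48 members passed the test in cycling cells over other cells, where 4.54% of 10332 genes were called and 2.73% were called higher. It was Psmb9, with 100 and 58.9 CPM in cycling cells (33 and 16 UMIs), against 43.0 and 29.1 CPM in other cells, a log2 ratio of 1.04 ± 0.30 (SE; edgeR with the replicate as a block, adjusted p = 0.016). Next were the alpha ring genes Psma4 (0.74 ± 0.25, adjusted p = 0.058) and Psma1 (0.88 ± 0.30, adjusted p = 0.074), which did not pass. Of the 48, 23 were above 0 in both replicates and 4 below 0 in both, where 23.6% of all genes were above 0 in both, and the median log2 ratio was 0.19, against -0.07 over all genes. With cells thinned to 1000 UMIs, 12 of 45 were above 0 in both replicates and 10 below, where 19.3% of all genes were above. The median was 0.05, against -0.14 over all genes. The share of all genes below 0 in both replicates was not computed. Shares above 0 are over all genes tested, those with few UMIs included, so the counts of members above 0 cannot be judged closely. Psmb9 did not pass when cells were thinned or when T cells alone were compared, where 0 of 45 and 0 of 44 members passed. Fewer genes were called there in all, 99 of 8631 and 105 of 7978, against 469 of 10332. In thinned cycling cells Psmb9 had 7 and 4 UMIs and a log2 ratio of 0.48 ± 0.52 (SE). In cycling T cells it had 15 and 6 UMIs and 0.83 ± 0.44. Both ratios were above 0 in each replicate, so a loss of the difference is not shown. The comparison of cycling cells was added after the group values had been seen.

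**Figure D4:**
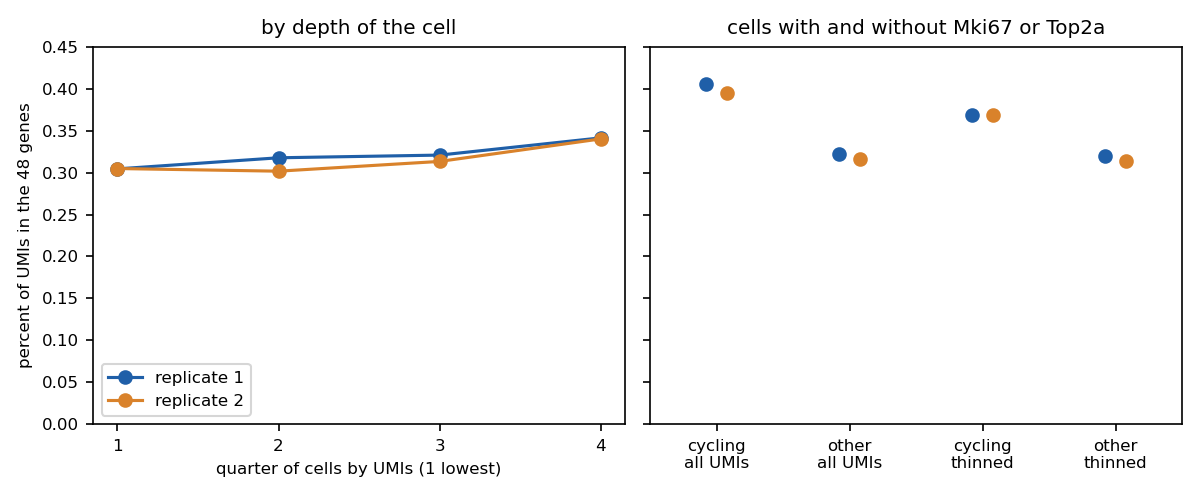
Percent of UMIs in the 48 genes (vertical axis). Left, by depth, in 4 equal parts of the cells ordered by UMIs. Right, in cells with at least 1 UMI of Mki67 or Top2a (cycling) and other cells, with all UMIs and with cells thinned to 1000 UMIs. Points are 1 replicate each (blue, replicate 1; orange, replicate 2), with no error bars. Cycling cells lie at 0.395% and 0.406% with all UMIs and near 0.37% when thinned, above the other cells in each case.

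Cells with 3 or more UMIs of stromal collagen genes, which the sort should not hold, numbered 214 in replicate 1 and 14 in replicate 2. Their immunoproteasome share was 69.9% (interval 64.9% to 74.7%) in replicate 1, against 71.9% in the other cells, and 6 of 11 UMIs in replicate 2. Their proteasome genes held 0.299% of UMIs in replicate 1, against 0.330% in the other cells.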

How the data were processed

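The authors deposited unnormalised UMI counts per cell and gene, the output of version 1.8 of the BD Rhapsody whole-transcriptome pipeline on GRCm38 with GENCODE M19, per the file headers. The submitters' processing notes also name HISAT2 2.0.5, Bowtie2, mm10 and GRCm38.p6. The sample tag calls are the pipeline's own, and only cells with tag 6 (replicate 1) or tag 12 (replicate 2) were used. Genes listed in only 1 of the tables were set to 0 in the other. No doublet caller was run beyond the tag multiplets.

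Cells were kept that had 300 or more genes and no more than 25% mitochondrial UMIs. Counts were summed per replicate and cell group (8 sums), and tested with edgeR 4.0.16 in R 4.3.3 (glmQLFTest, TMM, filterByExpr, replicate as a block, Benjamini-Hochberg over all genes at 0.05), leaving 3 residual degrees of freedom (common dispersion 0.00667). The block pairs groups of the same sample. The 6 genes that define the groups were left out of the test. The cycling fit had 4 sums and 1 residual degree of freedom. DESeq2 1.42.0 was an alternative, as were the settings named in the closing section. Each standard error is the log2 ratio over the root of its F value, and intervals of log2 ratios are normal 95% intervals, which may be too narrow. Ratios of single replicates use TMM and a prior count of 2. CPM are UMIs per 1000000 of the sum, without TMM. Shares carry exact Clopper-Pearson intervals, and intervals between replicates cover counting error only. P-values measure how far the differences between groups vary between these 2 samples, a spread that may be technical.

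The members and gene lists were chosen with earlier results of these data known. Of the interferon and ubiquitin lists, 1 gene each is not reported here and is not in their counts. Named besides the catalytic and PA28 genes are the highest or lowest of a role and up to 5 called genes of each pathway list with 1 direction in both replicates. Psma7, Psma1, Psma4, Irf7 and the genes named for the difference between replicates were chosen after their values were seen. Positions came from GENCODE M21, matched by symbol for 48 of 48 members, and promoters from RefSeq, for 41 members.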

Additional observations from a re-analysis of the deposited data

How the results depend on the processing

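The count of proteasome genes past the threshold was 0 in the 4 comparisons, and it was recomputed under 9 alternatives each: no TMM scaling, DESeq2, no filter on low counts, no replicate block, a stricter cell filter (at least 500 genes, at most 10% mitochondrial UMIs), thinned cells with groups from full or from thinned counts, and without cells that had T cell receptor constant UMIs but no CD3 UMI, or 2 or more UMIs of other cell types. It stayed 0 in 33 of 36 cases and was 1 in 3. These were T cells over Ncr1 cells with groups from thinned counts (Psmb5), and T cells over the rest with cells thinned either way (Psmb2). Without the replicate block, only 84, 112, 71 and 10 of 9637 genes were called in the order of the report. With so few calls among all genes, a count of 0 members there says little. The other alternatives called 220 to 1423 genes in a comparison. Leaving out a replicate left no residual degrees of freedom, so no count could be had without one.

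The balance of immunoproteasome over standard genes moved by more than its spread over replicates in 9 cases. For T cells over Ncr1 cells it was 0.25 with groups from thinned counts (0.45 and 0.05 in replicates 1 and 2). It was -0.47 without cells with T cell receptor constant UMIs (-0.11 and -0.83). Under the stricter cell filter both replicates were also below 0 (-0.08 and -0.40), with a mean within the spread. For T cells over Ccr6 or Cd4 cells it was 0.62 with groups from thinned counts (0.68 and 0.56). Thinned cells with groups from full counts gave 0.33 and 0.19 there, with a mean within the spread. For Ncr1 cells over Ccr6 or Cd4 cells it was 0.24 under the stricter cell filter, and 0.26 and 0.37 with thinned cells and groups from full and thinned counts. It was 0.55 without cells with T cell receptor constant UMIs, 0.026 without cells with markers of other types and 0.011 with Psmb1 to Psmb7 as the standard. Leaving out 1 replicate in turn gave -0.28 to 0.03, -0.18 to 0.19, -0.10 to 0.08 and 0.10 to 0.16 in the order of the report. The spread for Ncr1 cells over Ccr6 or Cd4 cells, 0.04, leaves out counting error, so a move past it may lie within counting error. The cause of these moves was not tested. The difference between replicates was 4.90 to 7.56 points under 5 alternatives added after seeing the data, in 1 direction. The count of members called in cycling cells, 1 (Psmb9), was 0 with thinned cells and 0 within T cells. Calls among all genes fell there from 469 to 99 and 105. The number of cells limits the Ccr6 or Cd4 cells most (128 and 79 cells), where Psma5, for one, rests on 3 and 2 UMIs.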
